A study of Mus musculus with 6 samples.

Results

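The proteasome genes of the mouse cerebral cortex were examined at 2 ages. The genes were taken by name: a gene was included when its symbol was Psm, followed by a letter from a to g and a number, which gave 48 of the 55421 genes with a deposited value. They were grouped into 8 subcomplexes, namely the alpha ring of the core (8 genes), the constitutive beta ring (7), the inducible and tissue-restricted beta subunits (4), the ATPases of the cap (6), the other subunits of the cap (11), the chaperones that assemble the cap (3), the activators together with the regulator Psmf1 (5), and the chaperones that assemble the core (4). All mice were male wild-type C57BL/6J, 3 of 6 months of age (mice 10, 11 and 17) and 3 of 24 months (mice 2, 4 and 5), and every mouse was anaesthetised with isoflurane before cervical dislocation. Total RNA of the dissected cortex of each mouse gave 1 library, so that each value stands for 1 animal and for all cell types of the tissue together. In such bulk RNA, fewer cells of a type and less RNA per cell cannot be told apart.

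The proteasome is the main protease of the cytosol and nucleus, and it degrades proteins that carry a chain of ubiquitin. Its core is a barrel in which outer rings of alpha subunits close the entrance and inner rings of beta subunits hold the proteolytic sites, and a cap of ATPases and other subunits binds, unfolds and feeds in the substrate. Under interferon signalling, the catalytic subunits Psmb5, Psmb6 and Psmb7 can be replaced by Psmb8, Psmb9 and Psmb10, which form the immunoproteasome and favour peptides suited to presentation on class I molecules. In neurons, proteasome activity takes part in synaptic protein turnover, and in the brain the inducible subunits are best known from microglia and other immune cells.

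The libraries held 29495379 to 36494240 counts. At least 1 count fell on 33974 to 35651 genes at 6 months and on 40208 to 43561 genes at 24 months. Levels are given as CPM (counts relative to the size of the library, with library sizes scaled by the TMM method of edgeR) for comparisons between mice, and as TPM (transcript abundance, which corrects for exonic length) for comparisons between genes. The TMM factors were 0.921 to 0.946 at 6 months and 1.04 to 1.10 at 24 months, and this difference sets the zero of every fold change below. Over the 7873 genes above 20 CPM, the median log2 fold change of 24 over 6 months was -0.21 with TMM scaling and -0.02 with library totals, and 87% of these genes had a negative value with TMM scaling. The labelled tissue was checked on marker lists: all 10 markers of cortical neurons were detected, their summed level was 8461 to 9816 CPM at 6 months and 6247 to 8088 CPM at 24 months, and no marker of any list was at 0 in every library.

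Of the 48 proteasome genes, 46 had a mean level above 1 CPM in the cortex, and the levels spanned several orders of magnitude. The highest was Psmc5, an ATPase of the cap, with a mean of 967 TPM over the 6 mice, which placed it at rank 89 of all genes. It was followed by Psmc1 (509 TPM), Psmd2 (333 TPM), Psme3 (305 TPM) and Psmd7 (302 TPM). The lowest was Psmb11, the subunit of the thymic cortex, with 0.158 TPM. Within the cap, the lowest ATPase was Psmc2 (116 TPM) and the lowest of the other subunits was Psmd3 (56.0 TPM). Next lowest after Psmb11 were Psma8, the alpha subunit known from the testis, with 1.07 TPM, and the inducible subunits Psmb9 and Psmb8 with 1.74 and 6.26 TPM. The deposited TPM divides by the whole exonic length of a gene, and the order within the complex depended on that choice. When counts were divided by the length of the principal transcript instead, Psma7 moved from 239 to 804 TPM, Psmb6 from 295 to 693 TPM and Psmb7 from 52.0 to 153 TPM, whereas Psmb5 stayed at 124 TPM. The rank order of neighbours of similar level should therefore not be read, while the 4 lowest genes were the lowest with both lengths.

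**Figure D1:**
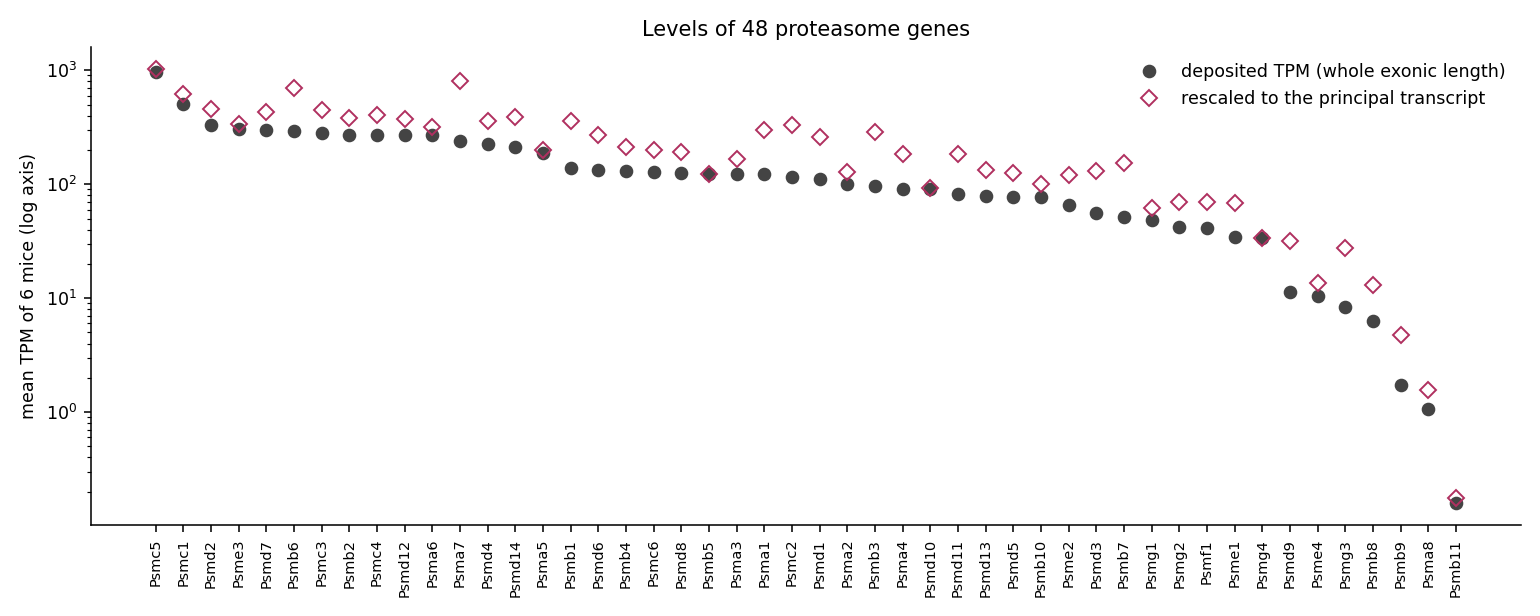
Mean TPM of the 6 mice (vertical log axis) for each of the 48 proteasome genes, ordered by the deposited value (dots) and rescaled to the principal transcript (diamonds). Psmc5 stands at 967 TPM, and Psmb8, Psmb9, Psma8 and Psmb11 form the low end from 6.26 to 0.158 TPM.

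The first question was whether the proteasome as a whole differed between the ages. At 1% FDR, the threshold of the study, 0 of 48 proteasome genes passed the edgeR quasi-likelihood test, and 0 of the 32905 genes tested did (0%). The likelihood ratio and exact tests of edgeR and the Wald test of DESeq2 also gave 0 of 48, and their counts over all genes are not given here. The study itself reports differentially expressed genes at 1% FDR, most of them higher at 24 months. It used edgeR after a filtering step and names no test. That filtering was not repeated, so the 0 of all genes does not restate its result. At 10% FDR, 14 proteasome genes were lower at 24 months and 1 was higher, whereas over all genes tested 8.33% were lower and 10% were higher. At an unadjusted p under 0.05, 22 were lower and 1 was higher, against 13.1% and 17.6% of all genes. All 24-month mice lay below all 6-month mice for 31 genes and above them for 2 genes, against 16.3% and 20% of all genes. The fold change was negative for 44 of the 48, against 41.6% of all genes. The 14 lower genes became 0 when the 6-month mouse 10 or 11 or the 24-month mouse 2 or 4 was left out, 5 when the 6-month mouse 17 was and 8 when the 24-month mouse 5 was. Counts over all genes in these smaller fits are not given here, so the drop is not read as particular to the proteasome. Markers of cortical neurons were lower as well with TMM scaling, without overlap in their summed CPM. All 10 lay above 20 CPM, and 3 of 10 were lower at 10% FDR, against 28.9% of all genes above 20 CPM. Their summed TPM overlapped between the ages, with 4548 to 5190 at 6 months and 3676 to 4604 at 24 months. The part of neurons in the lower proteasome genes was not tested.

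The share of lower genes was nearer to that of other genes of similar level. Of the 41 proteasome genes above 20 CPM, 14 (34.1%) were lower at 10% FDR, against 28.9% of all genes above 20 CPM. Without overlap between the ages, 28 of the 41 (68.3%) were lower, against 49.9%. The median log2 fold change was -0.21 over the 48 proteasome genes and -0.21 over all genes above 20 CPM. When scaled by library totals alone, the proteasome median was -0.01, 26 of the 48 genes had a negative fold change, and the genes without overlap were 2 lower (Psmb7 and Psmg2) and 4 higher (Psmb8, Psmb9, Psmb11 and Psme3). The corresponding shares over all genes were 24.9% with a negative fold change, and 4.75% lower and 30.9% higher without overlap; above 20 CPM, 55.5% had a negative fold change. Summed over all 48 genes, the deposited TPM was 7653, 7436 and 7265 in the 6-month mice 10, 11 and 17 and 7345, 7405 and 6632 in the 24-month mice 2, 4 and 5. The 24-month mouse 5 had the lowest sum, and the other mice overlapped between the ages.

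**Figure D2:**
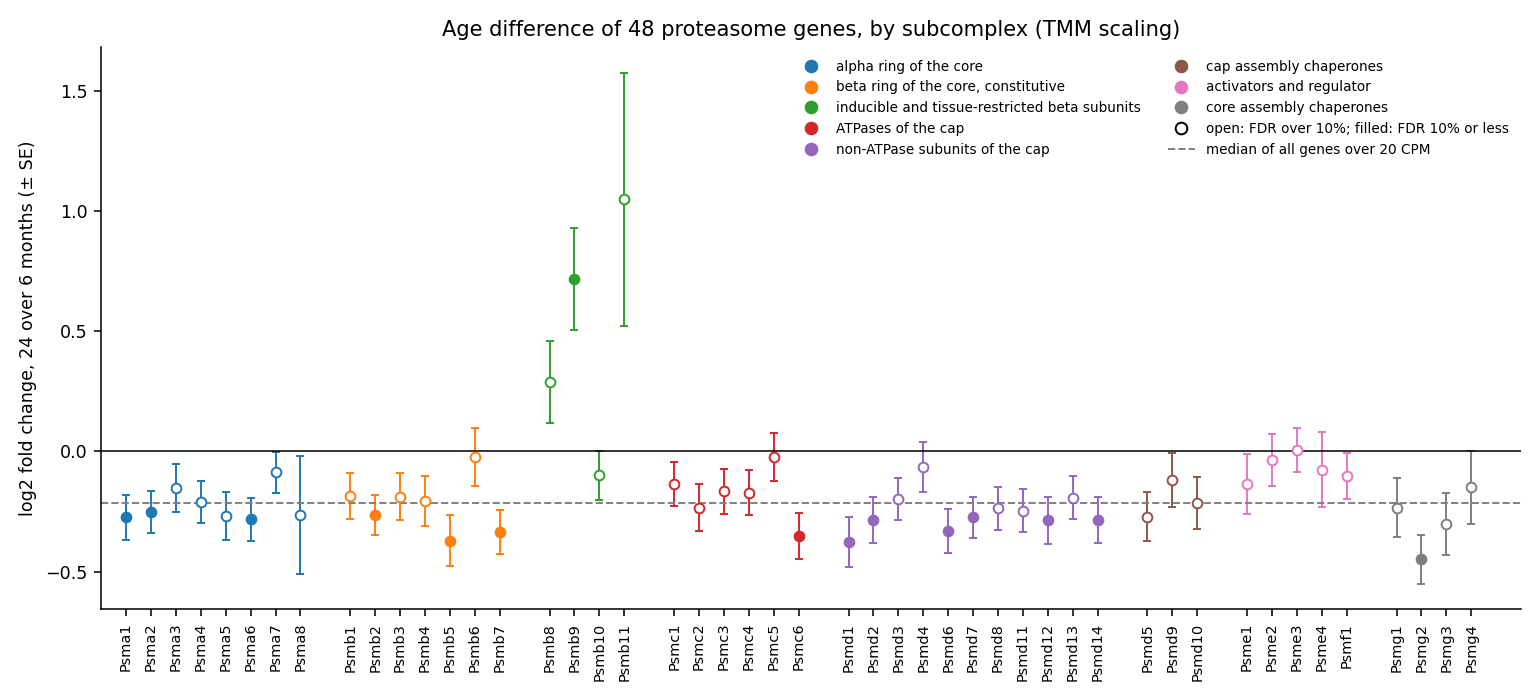
Log2 fold change of 24 over 6 months (vertical axis, TMM scaling, bars are the standard error of the fit, 3 mice per age) for each of the 48 genes, coloured by subcomplex, with filled points for an FDR of 10% or less. Most genes lie near the dashed line, the median of -0.21 over all genes above 20 CPM, while Psmb8, Psmb9 and Psmb11 lie above 0; with library totals the median of the 48 genes is -0.01.

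In the alpha ring of the core, which shapes the gate of the barrel, all 8 genes had a negative fold change with TMM scaling and the median was -0.26 (-0.07 with library totals). Psma6 measured 102, 95.9 and 100.2 CPM in the 6-month mice and 86.7, 81.1 and 77.4 CPM in the 24-month mice. Every 24-month mouse was below every 6-month mouse, and the log2 fold change was -0.28 ± 0.09 (SE, edgeR FDR 0.0786). Psma1 (-0.27) and Psma2 (-0.25) also passed 10% FDR. At the other end, Psma7 had a log2 fold change of -0.09 with overlapping ages, and 0.11 with library totals. The testis subunit Psma8 had 20 to 28 counts in each of the 6 mice and did not pass the test.

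In the constitutive beta ring the genes did not move alike. The 3 catalytic members differed most: Psmb5, which holds the chymotrypsin-like site, and Psmb7, which holds the trypsin-like site, passed 10% FDR, whereas Psmb6, which holds the caspase-like site, had a fold change near 0. Psmb5 (chr14:54614119-54618022 of GRCm38, minus strand) measured 33.1, 34.8 and 35.5 CPM at 6 months and 29.3, 26.3 and 24.4 CPM at 24 months. The ages did not overlap, and the log2 fold change was -0.37 ± 0.11 (SE, FDR 0.0658), or -0.18 with library totals. Psmb7 (chr2:38588036-38644087, minus strand) measured 57.3, 52.1 and 53.8 CPM at 6 months and 43.1, 44.7 and 41.7 CPM at 24 months. It was lower in all 24-month mice under either scaling, with a log2 fold change of -0.33 ± 0.09 (FDR 0.0629), or -0.14 with library totals. Psmb6 (chr11:70525367-70527858, plus strand) measured 153, 150.0 and 153 CPM at 6 months and 174, 151 and 124 CPM at 24 months. The 6-month mice were almost equal and lay within the spread of the 24-month mice, whose coefficient of variation was 16.7% against 1.23%. Of the other members, Psmb2 passed 10% FDR (-0.26), and Psmb1, Psmb3 and Psmb4 did not, with log2 fold changes of -0.18 to -0.21. Reads were counted without regard to strand as far as the stated options show, and 12.1% of the exonic bases of Psmb5 and 11.8% of those of Psmb7 are shared with Mir686 on the same strand and with Nek6 on the opposite strand, respectively, so those reads cannot be told apart.

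The upstream stretches of Psmb5 and Psmb6 are printed because these partners in one ring differed in their age difference while both hold the core of an antioxidant response element, the motif bound by Nfe2l1 and Nfe2l2, the transcription factors known for raising proteasome genes when proteasome capacity is short. Capitals mark that core, searched as TGACNNNGC on both strands, and exonic bases were left out (RefSeq, GRCm38.p6, 5' to 3').
Psmb5, chr14:54618023-54618245, minus strand: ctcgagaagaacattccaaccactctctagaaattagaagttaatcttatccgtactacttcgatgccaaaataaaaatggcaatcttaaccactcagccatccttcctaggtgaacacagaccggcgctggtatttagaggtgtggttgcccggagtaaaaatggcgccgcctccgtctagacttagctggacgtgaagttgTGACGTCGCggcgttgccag
Psmb6, chr11:70525107-70525356, plus strand: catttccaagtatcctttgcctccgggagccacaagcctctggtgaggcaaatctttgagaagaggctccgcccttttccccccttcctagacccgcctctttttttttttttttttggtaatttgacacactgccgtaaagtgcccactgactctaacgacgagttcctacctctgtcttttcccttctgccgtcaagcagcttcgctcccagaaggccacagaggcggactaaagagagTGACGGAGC
A window from 250 bases before to 50 bases after the start was given for 40 of the 48 genes, and 6 of them (15%) held this core, namely Psmb5, Psmb6, Psmc6, Psmd12, Psmd9 and Psme4, against 12.4% of all 32851 windows. Of the 10 genes with a window that were lower at 10% FDR, 3 held it. A CCAAT box was found in 14 of the 40 genes (35%, against 37.4% of all windows). The interferon-stimulated response element (2 GAAA runs with 2 bases between them) was found in 5 (12.5%, against 3.44%) and the gamma-activated site TTCNNNGAA in 3 (7.5%, against 8.3%). Those 5 were Psmb3, Psmd4, Psmd9, Psme1 and Psmg4. None of them is an inducible beta subunit, and each had a negative fold change with TMM scaling. A gene counted when any of its windows matched, and Psma6, Psmc2 and Psme2 had several. The share of genes is thus not in the same unit as the share of all windows. Psmb8 was among the genes with a gamma-activated site, and Psmb9 and Psmb10 had neither interferon motif in their window. These are matches of letters, which may overlap one another, and no binding was measured.

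The 3 inducible subunits did not move alike, and 1 of them passed the test. Psmb9, which replaces Psmb6, was the 1 proteasome gene higher at 10% FDR. It measured 1.10, 1.36 and 1.44 CPM in the 6-month mice and 2.53, 1.91 and 2.00 CPM in the 24-month mice, from 34, 47 and 47 counts and 82, 66 and 68 counts. Every 24-month mouse was above every 6-month mouse, and the log2 fold change was 0.72 ± 0.21 (SE, FDR 0.0697), or 0.91 with library totals. With 1 mouse left out, the FDR lay between 0.0642 and 0.182, and it was at or below 10% in a single case, without the 24-month mouse 5; the fold change stayed between 0.59 and 0.80. Psmb8, which replaces Psmb5, measured 4.67, 4.55 and 6.32 CPM at 6 months and 6.13, 7.03 and 5.82 CPM at 24 months. The 6-month mouse 17 lay among the 24-month mice, and the log2 fold change of 0.29 ± 0.17 did not pass the test (edgeR FDR 0.272). Psmb10, which replaces Psmb7, measured 38.4, 34.1 and 38.7 CPM at 6 months and 34.8, 36.2 and 32.8 CPM at 24 months, with overlapping ages and a log2 fold change of -0.10 ± 0.10. Psmb10 was thus the best expressed of the 3 inducible genes and the only one of them with a negative value under TMM scaling (0.09 with library totals).

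**Figure D3:**
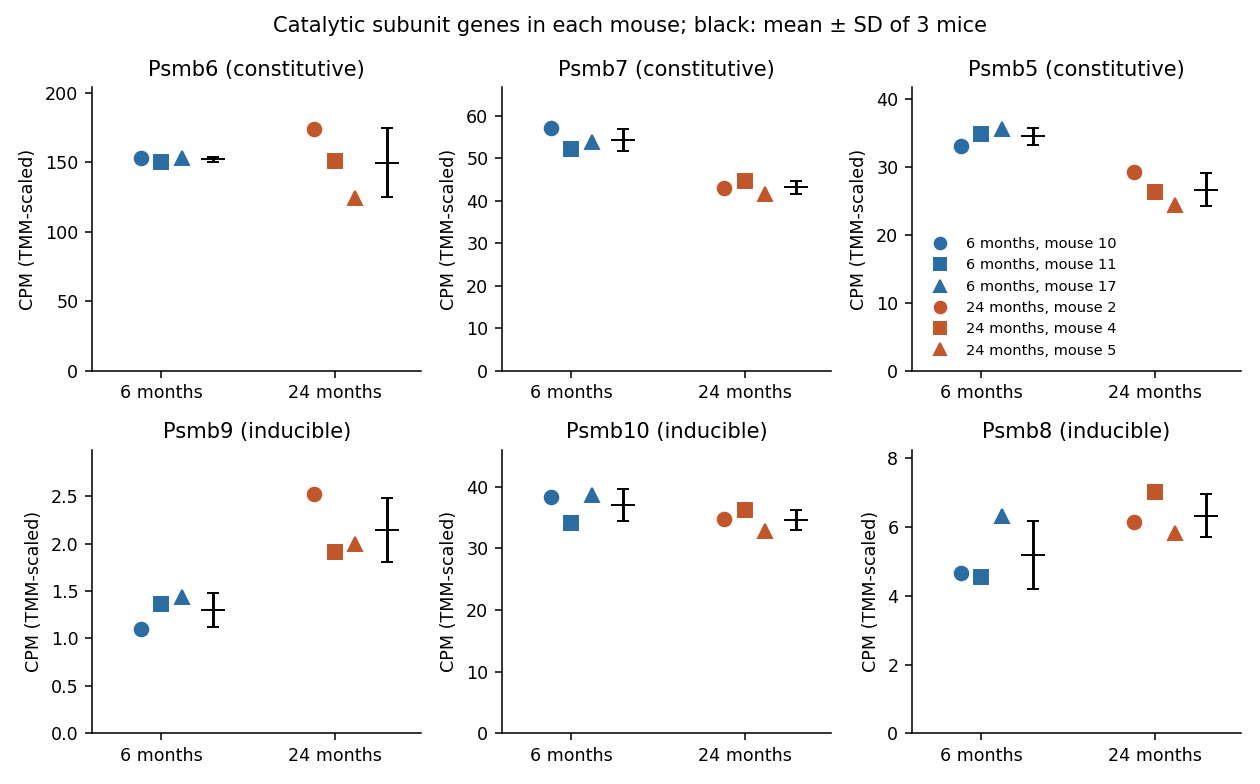
CPM (TMM-scaled, vertical axis from 0) of the constitutive catalytic genes Psmb6, Psmb7 and Psmb5 (top) and of the inducible gene that takes the place of each (bottom) in every mouse, with mean ± SD of 3 mice per age in black. Psmb7 and Psmb5 are lower and Psmb9 is higher in all 24-month mice, whereas Psmb6, Psmb10 and Psmb8 overlap between the ages.

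The balance between each inducible subunit and the one it replaces was then compared. A ratio of 2 genes within a mouse does not depend on how the library is scaled, so these comparisons are free of the shift between TMM and library totals. It does depend on the level of the genes, since the fold changes (log2) of all tested genes had a median of 0.15 and those of genes above 20 CPM one of -0.21, so each ratio is set beside the ratio of other genes of its level class to the same constitutive subunit. The log2 ratio of Psmb8 to Psmb5 (in TPM) was -4.74, -4.85 and -4.40 in the 6-month mice 10, 11 and 17 and -4.16, -3.81 and -3.98 in the 24-month mice 2, 4 and 5. The ages did not overlap, and the mean went from -4.66 ± 0.23 to -3.99 ± 0.18 (SD, n = 3), a difference of 0.68 or 1.60-fold. The log2 ratio of Psmb9 to Psmb6 was -8.09, -7.75 and -7.70 at 6 months and -7.08, -7.27 and -6.92 at 24 months. Again the ages were apart, with means of -7.85 ± 0.21 and -7.09 ± 0.18, a difference of 0.76 or 1.69-fold. The log2 ratio of Psmb10 to Psmb7 was 0.43, 0.39 and 0.53 at 6 months and 0.69, 0.70 and 0.66 at 24 months, a smaller difference of 0.23 or 1.18-fold that was likewise larger than the spread between mice. In each of the 3 pairs the exact two-sided permutation test over the 6 mice gave p = 0.1 (0.1 after Benjamini-Hochberg adjustment over the 3 pairs), which is the smallest p that 3 mice against 3 allow, so a p under 0.05 could not be reached. The 3 ratios come from the same 6 mice and are not independent of one another. Of the other genes of 1 to 20 CPM, 38.4% lay higher relative to Psmb5 in every 24-month mouse and 8.53% did so relative to Psmb6, with median differences of 0.35 and 0.0071. Of the other genes above 20 CPM, the class of Psmb10, 27.4% lay higher relative to Psmb7 in every 24-month mouse, with a median difference of 0.12. The separation of the ages was thus frequent among other genes where the partner was Psmb5 or Psmb7. For Psmb6 the share was lower, and the values of Psmb6 itself spread widely at 24 months. With 1 mouse left out in turn, the differences stayed between 0.58 and 0.81 for Psmb8 to Psmb5, between 0.64 and 0.85 for Psmb9 to Psmb6, and between 0.21 and 0.27 for Psmb10 to Psmb7.

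**Figure D4:**
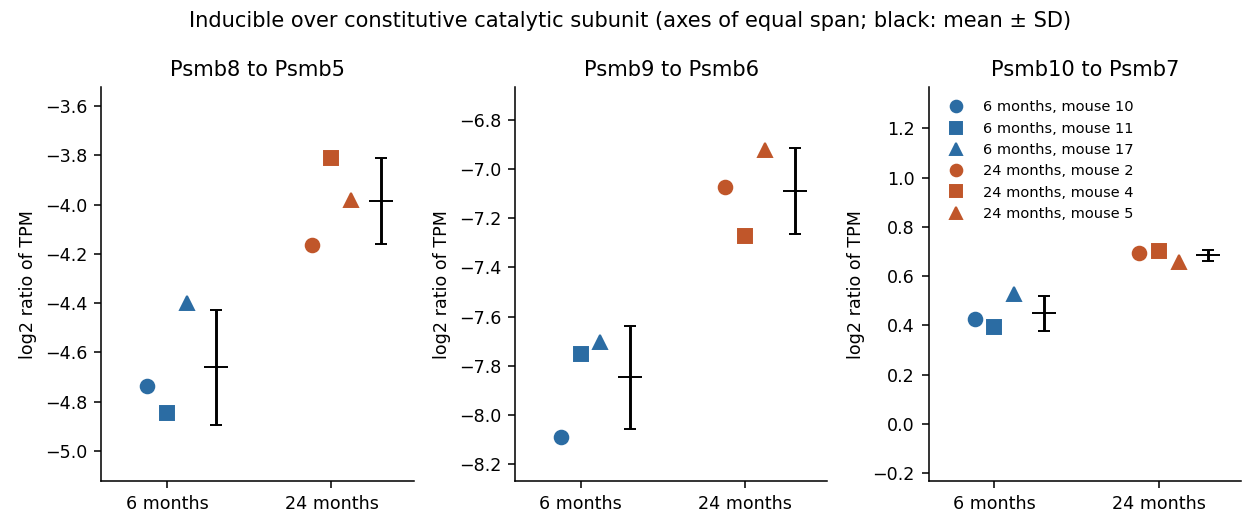
Log2 ratio of TPM of the inducible over the constitutive catalytic subunit in each mouse (vertical axes of equal span), with mean ± SD of 3 mice per age in black. In all 3 pairs the 24-month mice lie above the 6-month mice, by 0.68, 0.76 and 0.23 on the log2 scale.

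What share of each pair the inducible transcript made up depended on the length used. Psmb8 made up 3.83% ± 0.61 of the TPM of Psmb8 and Psmb5 at 6 months and 5.96% ± 0.68 at 24 months (SD, n = 3), but 7.64% ± 1.16 and 11.6% ± 1.25 with the lengths of the principal transcripts. Psmb9 made up 0.435% ± 0.060 and 0.732% ± 0.087 of its pair, or 0.502% and 0.843% with the principal lengths. Psmb10 stood apart with 57.7% ± 1.2 and 61.6% ± 0.4 of the pair, or 37.6% and 41.5%. So Psmb10 transcripts were of the same order as those of Psmb7 at both ages, whereas Psmb9 transcripts were under 1% of their pair at both ages and with both lengths. These are shares of RNA; subunits incorporated in proteasomes were not measured here.

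Psmb8 (chr17:34197721-34201454, plus strand) and Psmb9 (chr17:34181987-34187764, minus strand) lie in the class II region of the major histocompatibility complex, and Psmb10 (chr8:105935735-105938444, minus strand) lies elsewhere. Some of their exonic bases are shared with other genes, 14.7% in Psmb8 with Gm20496 and 5.79% in Psmb9 with the peptide transporter Tap1. Low counts also call for a comparison with genes taken as silent in cortex, here sensory receptor genes, which are called silent genes below. Whether they are silent was not tested, and the study reads genes of sensory perception as activated with age. Over 1545 sensory receptor genes, the level was 0.0206 to 0.0236 CPM per exonic kilobase at 6 months and 0.0552 to 0.0944 at 24 months. This level would give 2.52 to 3.05 counts on Psmb9 at 6 months and 6.63 to 10.2 counts at 24 months, well under the counts of 34 to 82 observed. With that level subtracted from the counts of both genes, the difference in the log2 ratio of Psmb9 to Psmb6 was 0.67 and that of Psmb8 to Psmb5 was 0.65, and the ages did not overlap in either. For Psmb11 the same level would give 3.30 to 3.99 counts at 6 months and 8.68 to 13.3 counts at 24 months, against 1, 6 and 6 counts and 9, 10 and 9 counts observed. Psmb11, with a fitted log2 fold change of 1.05 (edgeR FDR 0.202), is therefore at the level of these receptor genes.

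Markers of immune cells were read beside these genes, since immune cells carry the inducible subunits. The summed level of 10 microglia markers was 517 to 519 CPM at 6 months and 500.3 to 533 CPM at 24 months, with Tmem119 higher and Csf1r lower at 10% FDR. The summed level of 6 T cell markers was 2.93 to 4.15 CPM at 6 months and 4.20 to 6.23 CPM at 24 months, so that it did not overlap, and Cd3g and Cd8a were higher at 10% FDR. Of 5 markers of B cells and plasma cells, 3 were higher at 10% FDR, Ms4a1 and Jchain among them, while the sum of the 5, of which Ighm made up most, was 58.5 to 98.2 CPM and 31.7 to 97.8 CPM. Over all genes tested, 10% were higher and 8.33% lower at 10% FDR, and 20% lay higher in every 24-month mouse. The level of silent genes, itself higher at 24 months, was not subtracted from these markers, and the T cell markers were low. More of these cells at 24 months can therefore not be read from the counts. The part of these cells in the higher level of Psmb9 was not tested.

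The genes that act with the immunoproteasome were read as a list. Of 21 genes of the interferon response and of class I peptide loading, 3 were higher at 10% FDR and 0 were lower (edgeR; at an unadjusted p under 0.05, 5 and 0), against 10% and 8.33% of all genes tested. The fold change was positive for 19 of the 21, against 58.4% of all genes, and 5 lay higher in every 24-month mouse, against 20%. Their median log2 fold change was 0.23 (0.42 with library totals), against 0.15 (0.34) over all genes tested. Most genes of the list lay above 1 CPM, and over the 15761 genes above that level the median was -0.14 (0.05 with library totals). The shares over all genes tested include genes below 1 CPM and are thus not matched to the level of the list. The 3 were Nlrc5, the transcriptional activator of class I genes (1.25 ± 0.37), and the class I heavy chains H2-K1 (0.55 ± 0.15) and H2-D1 (0.35 ± 0.11). Nlrc5 was weakly expressed, averaging 0.52 CPM in the younger group and 1.25 CPM in the older one. The level of silent genes, higher at 24 months too, was not taken off this gene, and its part in the fold change of Nlrc5 was not tested. H2-K1 measured 10.5, 15.04 and 15.03 CPM at 6 months and 20.3, 20.5 and 18.8 CPM at 24 months, without overlap. Tap1, which carries proteasome products into the endoplasmic reticulum, measured 2.17, 2.43 and 4.28 CPM and 4.38, 5.03 and 3.62 CPM, with the 6-month mouse 17 among the older mice as for Psmb8. The interferon response genes Irf7 and Rtp4 were higher in every 24-month mouse, with log2 fold changes of 0.62 and 0.56, and missed 10% FDR (edgeR FDR 0.107 and 0.137). Irf1 and Gbp2, of the same response, had log2 fold changes of 0.04 and 0.03 and overlapped between the ages, and so did the light chain B2m with 0.02.

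In the cap, which recognises and unfolds the substrate, the ATPases and the other subunits were described apart. Of the 6 ATPases, which form the ring that drives unfolding, Psmc6 alone passed 10% FDR. It measured 147, 138 and 129 CPM at 6 months and 99.7, 115 and 109 CPM at 24 months, without overlap (log2 fold change -0.35 ± 0.10, FDR 0.0624; -0.16 with library totals). The best expressed ATPase, Psmc5, measured 386, 357 and 370.0 CPM and 382, 395 and 319 CPM, with overlapping ages and a log2 fold change of -0.02. The median of the 6 was -0.17 (0.03 with library totals). Of the 11 other subunits of the cap, 6 passed 10% FDR, all with lower values at 24 months: Psmd1, Psmd6, Psmd2, Psmd12, Psmd14 and Psmd7. All 11 lay above 20 CPM, where 28.9% of all genes were lower at 10% FDR. With library totals, 0 of the 48 proteasome genes were lower at 10% FDR, and the count over all genes with that scaling is not given here. Psmd1, a large scaffold subunit of the cap, measured 258, 271 and 229 CPM at 6 months and 175, 202 and 207 CPM at 24 months. The ages did not overlap, and the log2 fold change was -0.38 ± 0.10 (FDR 0.0626; -0.19 with library totals). Psmd6 measured 119, 118 and 107 CPM and 94.0, 93.9 and 85.6 CPM, with a log2 fold change of -0.33 ± 0.09. Psmd14, the deubiquitinase that removes the ubiquitin chain from the substrate, was at -0.28. At the other end stood Psmd4, a ubiquitin receptor of the cap, with -0.06 and overlapping ages (0.13 with library totals). The median of the 11 genes was -0.27 (-0.08 with library totals).

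The chaperones that assemble the cap, Psmd5, Psmd9 and Psmd10, gave log2 fold changes of -0.27, -0.12 and -0.21, and 0 of 3 passed 10% FDR (edgeR; 1 had an unadjusted p under 0.05). For Psmd9, 25.5% of the exonic bases are shared with Gm26745. Among the chaperones that assemble the core, Psmg2 had the largest negative value of all 48 genes. It measured 23.6, 22.5 and 23.9 CPM at 6 months and 17.6, 16.7 and 17.0 CPM at 24 months. The mice of one age were close together, with coefficients of variation of 3.21% and 2.69%, and the ages were well apart under either scaling. The log2 fold change was -0.45 ± 0.10 (SE, edgeR FDR 0.0535), a change of -26.7% in mean CPM, and -0.26 with library totals (FDR 0.146). The FDR of Psmg2 lay between 0.0407 and 0.166 with 1 mouse left out, and was over 10% without the 6-month mice 10 or 11 or the 24-month mice 2 or 4. Psmg1, with which Psmg2 forms a heterodimer that orders the alpha ring, had a log2 fold change of -0.23 ± 0.12 (edgeR FDR 0.216). For the other dimer, Psmg3 was at -0.30 (edgeR FDR 0.148) and Psmg4 at -0.15 (FDR 0.528).

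The activators, which open the core without ubiquitin, had the median nearest to 0 of the 8 subcomplexes with TMM scaling. None of the 5 genes of this group passed an unadjusted p of 0.05 in edgeR's test, and the median log2 fold change was -0.08 (0.11 with library totals). Psme1 and Psme2, the interferon-inducible subunits of the activator that works with the immunoproteasome, measured 20.6 to 22.7 and 30.3 to 34.2 CPM at 6 months and 16.8 to 21.9 and 28.4 to 33.6 CPM at 24 months. Both overlapped between the ages, with log2 fold changes of -0.14 and -0.03, although Psmb9 was higher in the same mice. Psme3, the nuclear activator, measured 226, 260.3 and 249.9 CPM and 239, 259.7 and 239 CPM, a log2 fold change of 0.01. Psme4 had 24.6, 26.3 and 23.0 CPM at 6 months and 19.3, 21.4 and 29.4 CPM at 24 months: the 24-month mice 2 and 4 were below all 6-month mice and mouse 5 was above them, and without mouse 5 the log2 fold change was -0.27 in place of -0.08. Psmf1, a regulator of core access, was at -0.10 with overlapping ages.

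**Figure D5:**
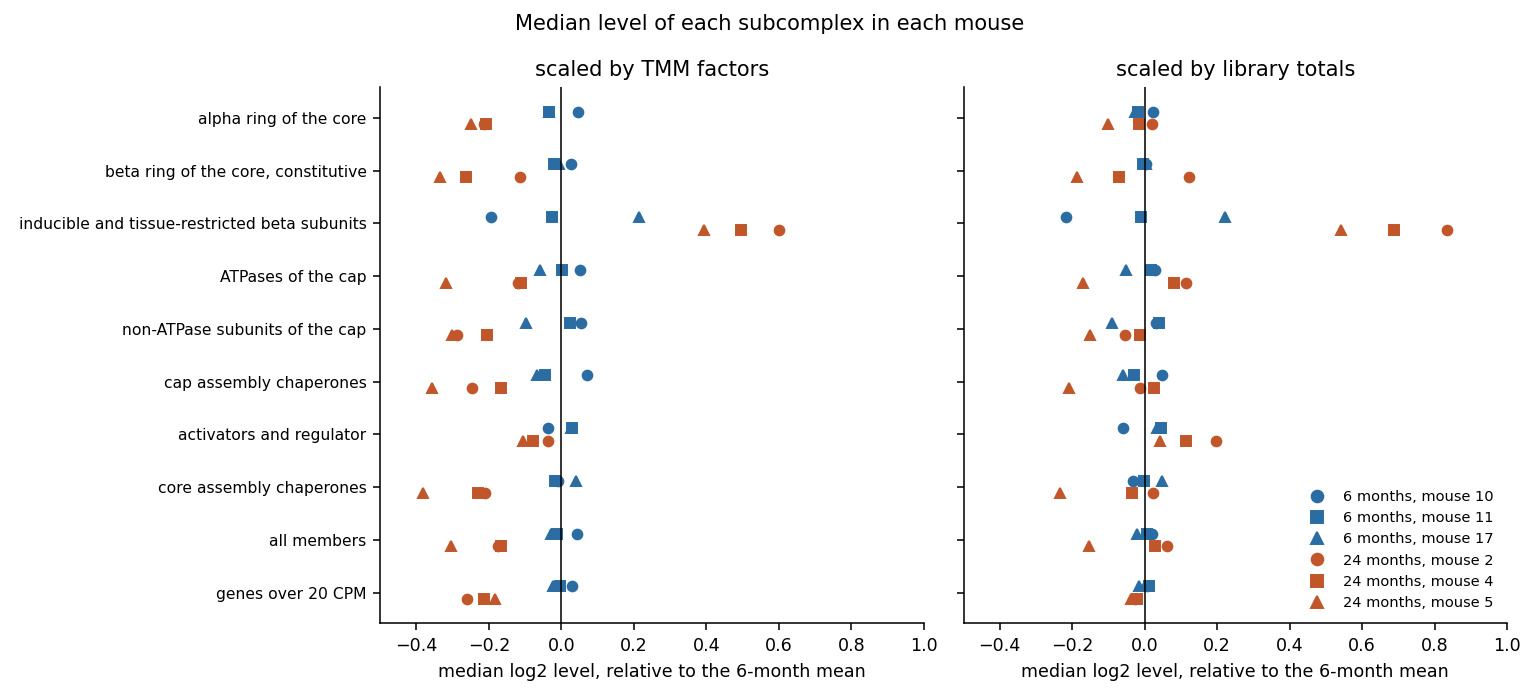
Median log2 level of each subcomplex in each mouse, relative to the mean of the 6-month mice (horizontal axis), with TMM scaling (left) and with library totals (right); blue marks 6 months and orange 24 months. The beta ring lies between -0.11 and -0.34 at 24 months on the left and between 0.12 and -0.19 on the right, and the activators at that age lie below 0 on the left and above 0 on the right. The inducible and tissue-restricted row, a median of 4 genes that include Psmb11, spreads from -0.19 to 0.22 at 6 months and lies above that at 24 months on the left.

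The medians of the subcomplexes per mouse showed the scaling at work. With TMM scaling, the median of the 48 genes was -0.17, -0.17 and -0.30 in the 24-month mice 2, 4 and 5, relative to the 6-month mean, and that of all genes above 20 CPM was -0.26, -0.21 and -0.18. With library totals the proteasome values were 0.06, 0.03 and -0.16. The 24-month mouse 5 thus had the lowest proteasome median under both scalings although it did not have the lowest median of all genes above 20 CPM with TMM scaling. For the 4 inducible and tissue-restricted genes the medians with TMM scaling were -0.19, -0.03 and 0.22 in the 6-month mice 10, 11 and 17 and 0.60, 0.50 and 0.39 in the 24-month mice 2, 4 and 5. These medians include Psmb11, which is at the level of the sensory receptor genes taken as silent, and do not show Psmb10, whose fold change was negative.

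Genes that serve the proteasome without bearing its name were read last. Of 11 associated factors found in the files, 4 were lower at 10% FDR and 0 were higher (edgeR; at an unadjusted p under 0.05, 7 and 0), with a median log2 fold change of -0.29 (-0.10 with library totals). All 11 lay above 20 CPM, where 28.9% of all genes were lower and the median was -0.21, so the count was near that of other genes of this level. Usp14, a deubiquitinase bound to the cap, measured 261, 230.0 and 216 CPM at 6 months and 155, 176 and 187 CPM at 24 months, without overlap (log2 fold change -0.45 ± 0.11, FDR 0.0553). The others were Zfand5 (-0.42), the thioredoxin-like Txnl1 (-0.34) and the small cap subunit Sem1 (-0.29). Pomp, the maturation factor of the core, was at -0.22 (FDR 0.118), and the ubiquitin receptor Adrm1 at -0.08. Of 9 genes that control proteasome transcription, 2 were lower at 10% FDR, Ngly1 (-0.38), which processes Nfe2l1, and the CCAAT-binding subunit Nfya (-0.39). Over all genes tested, 8.33% were lower. Of the 5 genes of this list above 20 CPM, 1 was lower, against 28.9% of all genes at that level. Nfe2l1 itself, the transcription factor that raises all subunits when proteasome capacity is short, measured 286, 331 and 334 CPM at 6 months and 267, 316 and 317 CPM at 24 months, with overlapping ages and a log2 fold change of -0.08. Of 10 genes for ubiquitin, its activation and its delivery, 4 were lower, among them the activating enzyme Uba1 (-0.42) and the shuttle receptors Rad23b (-0.30) and Ubqln1 (-0.36), and 0 were higher (edgeR; at an unadjusted p under 0.05, 5 and 0). Of these 10, 9 lay above 20 CPM, and 4 of the 9 were lower at 10% FDR, against 28.9% of all genes at this level. The median of the 10 genes, -0.19, was no lower than that of all genes above 20 CPM (-0.21). With library totals the medians of these last lists were 0.01 and 0.00, so they, too, moved with the scaling.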

How the data were processed

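RNA-seq of the cerebral cortex of 6 mice was used as deposited. According to the methods and the submitters' processing notes, the authors prepared single-end libraries from low-input total RNA, trimmed reads with Trim Galore 0.6.4, mapped them to GRCm38 with STAR 2.7.3a and counted reads on exons with featureCounts (Subread 2.0.0), with options that split reads of several positions. The authors deposited these counts per gene, all of them whole (100% of values), whereas the stated options would give fractions; how they became whole is not given in the sources used here. The authors also deposited TPM values, computed from counts and exonic length, which were used for levels between genes and for ratios within a mouse.

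Genes whose counts summed to 10 or more across the libraries were compared between 24 and 6 months by the quasi-likelihood test of edgeR (version 4.0.16 in R 4.3.3), with TMM factors and no covariate. FDR was computed by the Benjamini-Hochberg method over the 32905 genes and read at 1%, as in the study, and at 10%. All 48 proteasome genes passed the filter, and all were found in GENCODE vM21 with the same symbol. The principal transcript is the longest one tagged appris_principal_1, or else the longest of the basic set. Ratios were compared by exact two-sided permutation over mice. Alternatives were the likelihood ratio and exact tests, DESeq2 1.42.0, its size factors, library totals, other filters, limma 3.58.1 on log2(TPM + 1), and each mouse left out. Other computations used Python 3.11.15 and scipy 1.17.1. The edgeR fit was also run on simulated data, in which a set of genes changed by equal folds in both directions. Its result is not given here. The simulated data held no broad shift between the ages, so they do not test the dependence on scaling.

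The proteasome genes and the lists were chosen with earlier results of these data known. Genes named were the catalytic subunits and their partners, the activators and assembly chaperones, every proteasome gene past 10% FDR, and the highest and lowest of each subcomplex by fold change and by level; in related lists, those past 10% FDR. Psma3, Psma4, Psma5, Psmb1, Psmb3, Psmb4, Psmc1, Psmc3, Psmc4, Psmd13 and the other related genes were named after their values were seen. Of 12 associated factors listed, 11 were found by symbol. The mice of one age are separate animals, so p-values measure the spread between animals, with 3 per age. A few genes that the counts of the marker and related lists include are not reported here by name.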

Additional observations from a re-analysis of the deposited data

How the results depend on the processing

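At 1% FDR the count of proteasome genes was 0 under every alternative run. The count at 10% FDR with lower values, 14, was 6 with the likelihood ratio test, 6 with the exact test, 6 with DESeq2, 8 with DESeq2 size factors, 0 with library totals, 1 with filterByExpr, 3 without a filter, 0 with limma on log2(TPM + 1), and 0 to 8 with 1 mouse left out. It was 0 when the 6-month mouse 10 or 11 or the 24-month mouse 2 or 4 was left out, 5 when the 6-month mouse 17 was, and 8 when the 24-month mouse 5 was. Counts over all genes under these alternatives are not given here, for this or the other thresholds. The changes in count are therefore not read as particular to the proteasome genes. The count with higher values, 1, was 0 with limma and 0 to 1 with 1 mouse left out. At an unadjusted p under 0.05, the 22 lower genes became 13 with the likelihood ratio and 13 with the exact test, 1 with library totals, 6 with filterByExpr, 8 with limma and 4 to 22 with 1 mouse left out. The 1 higher gene became 2 with the likelihood ratio test, the exact test and filterByExpr, 3 with library totals, and 1 to 2 with 1 mouse left out. The median log2 fold change, -0.21, was -0.014 with library totals, -0.097 with filterByExpr, -0.090 with limma, and -0.23 to -0.16 with 1 mouse left out. The 3 ratios of inducible to constitutive subunits kept their direction with 1 TPM added to both genes (differences of 0.61, 0.44 and 0.23), with the level of silent genes subtracted and with 1 mouse left out, while the ratio of CPM gives the same difference by construction; with 1 mouse left out the smallest p possible is 0.2 (exact permutation test). That subtraction, the comparisons with genes of a level class (1 to 20 CPM, above 1 or above 20 CPM), also for the ratios, the principal transcript lengths and the non-overlap counts with library totals were chosen after seeing the data.

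Some fold changes of small size changed sign. With library totals 18 of the 48 did: Psma3 (0.041), Psma7 (0.11), Psmb1 (0.010), Psmb10 (0.094), Psmb3 (0.0072), Psmb6 (0.18), Psmc1 (0.058), Psmc3 (0.029), Psmc4 (0.023), Psmc5 (0.17), Psmd13 (0.0025), Psmd4 (0.13), Psmd9 (0.074), Psme1 (0.060), Psme2 (0.16), Psme4 (0.11), Psmf1 (0.092) and Psmg4 (0.046). With filterByExpr, which left out Psmb11, they were Psma7 (0.029), Psmb10 (0.015), Psmb6 (0.095), Psmc5 (0.093), Psmd4 (0.052), Psme2 (0.081), Psme4 (0.033) and Psmf1 (0.012). Without a filter they were Psmb6 (0.017), Psmc5 (0.016) and Psme2 (0.0034), and with limma Psma7 (0.026), Psmb10 (0.015), Psmb6 (0.077), Psmc5 (0.086), Psmd4 (0.044), Psme2 (0.076), Psme4 (0.015) and Psmf1 (0.015). With 1 mouse left out, the sign changed within the range of Psmb6 (-0.14 to 0.10), Psmc5 (-0.074 to 0.070), Psmd4 (-0.11 to 0.034), Psme2 (-0.083 to 0.030), Psme3 (-0.053 to 0.091) and Psme4 (-0.27 to 0.053). The cause of these changes was not tested. Counts of genes without overlap between the ages, 31 lower and 2 higher, were 2 and 4 with library totals. No paired analysis was possible because the mouse numbers of the ages are not shared. With 3 mice per age, genes of a few counts, such as Psmb11, are not resolved.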
